A study of Homo sapiens with 9 samples.

Results

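HEK293E cells, a derivative of the human embryonic kidney line HEK293, were transfected with siRNAs against ERH or with control siRNAs, and their small RNAs were sequenced. The comparison takes 7 of the 9 libraries of the series. The siERH arm holds siERH-#3 in replicates 1 and 2 and siERH-#5 in replicate 2. The control arm holds siGFP and siControl, each in replicates 1 and 2. Cells received siRNA on days 0 and 3 and were harvested on day 5, and no library in this set came from cells left without siRNA. siERH-#5 has a single library, so the siERH arm is mostly one siRNA sequence, and the labels do not say whether replicates came from separate cultures. P-values therefore measure the spread between these libraries, which may be technical. Small RNAs do not report ERH mRNA, so the knockdown itself was not measured.

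ERH is a small nuclear protein that binds DGCR8, the partner of the nuclease DROSHA in the Microprocessor. The Microprocessor crops primary transcripts into precursor hairpins, which Dicer then cuts into mature miRNAs. ERH is known for helping the Microprocessor crop hairpins that are poor substrates on their own, in particular a weak hairpin that lies beside a strong one in the same transcript. A mature miRNA pairs with its targets through its seed, bases 2 to 8, so miRNAs that share a seed form a family with overlapping targets, and the sum over a family is its dose in the cell.

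The mature sequences below are shown because several pairs share a seed but did not change alike. They are from RefSeq (GRCh38.p14), and capitals mark the seed. The counts are per hairpin, with both arms of a hairpin in 1 value, so they do not show which arm a count came from.
hsa-miR-15a-5p: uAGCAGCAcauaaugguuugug
hsa-miR-15b-5p: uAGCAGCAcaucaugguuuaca
hsa-miR-16-5p: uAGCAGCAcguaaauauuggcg
hsa-miR-19a-3p: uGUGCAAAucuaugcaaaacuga
hsa-miR-19b-3p: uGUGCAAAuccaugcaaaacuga
hsa-miR-181a-5p: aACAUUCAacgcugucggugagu
hsa-miR-181b-5p: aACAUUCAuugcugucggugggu
hsa-miR-132-3p: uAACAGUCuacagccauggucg
hsa-miR-212-3p: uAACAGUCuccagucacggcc
hsa-miR-34b-5p: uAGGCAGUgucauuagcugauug
hsa-miR-449c-5p: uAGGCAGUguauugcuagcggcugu
hsa-miR-4421: aCCUGUCUguggaaaggagcua
hsa-miR-3677-3p: cUCGUGGGcucuggccacggcc
hsa-miR-7-5p: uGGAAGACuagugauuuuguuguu
The first 3 share one seed, and so does each of the 4 pairs that follow. hsa-miR-4421 and hsa-miR-3677-3p belong to the 2 largest decreases among hairpins averaging 100 counts or more, and hsa-miR-7-5p to the largest gain of share among hairpins that rose.

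The libraries held 2609929 to 3248481 hairpin counts. Of 1485 hairpins, 1208 to 1263 were detected in control and 1288 to 1297 in siERH libraries. Hairpins of the HOX clusters, taken as a mark of the kidney line, summed to 27514 to 40294 CPM, against 3724 to 5347 CPM in the 2 K562 libraries. Erythroid and myeloid hairpins summed to 937 to 1557 CPM against 57281 to 63330 CPM, and lymphoid and pan-blood hairpins to 105 to 443 CPM against 65986 to 66702 CPM. These sums are per 1e+06 counts of the library total, with no TMM scaling. In all values below, CPM is the count per 1e+06 counts of a TMM-scaled library. Near-identical copies of a hairpin share reads, so counts such as those of the copies of mir-181b, mir-124, mir-19b or mir-7 cannot be assigned to a locus.

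With the replicate number as a block, 159 of 773 hairpins fell and 217 rose in the siERH libraries (edgeR's quasi-likelihood test, adjusted p under 0.05). These are 20.6% and 28.1% of the hairpins tested, and they are the background for every count of members below. Of these, 52 fell and 132 rose by at least 2-fold. In each replicate the siERH values lay below both control values for 149 of the 159 and above both for 208 of the 217. Against each control siRNA alone, 83 fell and 136 rose in both comparisons, which share the siERH libraries. The 2 control siRNAs differed from each other at 133 of 730 hairpins (18.2%) in the same kind of fit. Of the hairpins in both fits, 53 of 341 called for siERH and 79 of 377 not called differed between the controls. The number that fell was 94 without replicate 1 of siERH-#3 and 102 with siGFP as the only control. Scaled by library totals, 87 fell and 261 rose, the share of falling calls moved from 42.3% to 25%, and the median change over the tested hairpins moved from 0.01 to 0.22 (log2). With a trend on GC content removed, that share was 52.4%. All log2 fold changes below are relative to the TMM scale.

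On the TMM scale, abundance separated the directions. Among the 85 hairpins with a mean of 10000 counts and over, 30 fell (35.3%) and 4 rose (4.71%), and the median log2 fold change was -0.21. Among the 136 with 1000 to 10000 counts, 52 fell and 20 rose, with a median of -0.23. The split turned in the classes below. Of 198 hairpins with 100 to 1000 counts, 31 fell and 81 rose (40.9%), with a median of 0.42. Of 354 with 10 to 100 counts, 46 fell and 112 rose, with a median of 0.24. The median absolute log2 fold change of called hairpins was 1.18, 1.02, 0.67 and 0.50 from the lowest to the highest class, and at low counts a small change is less likely to pass. No hairpin in the highest class rose by 2-fold and 4 fell by 2-fold. By library totals, the median over all tested hairpins was 0.22 in place of 0.01. That shift is about the size of the medians of -0.21 and -0.23 in the abundant classes. The classes were not recomputed on that scale, so how far their medians and counts of falls depend on the scaling was not tested. Of the 6 hairpins with the largest losses of share, all but mir-378a passed by library totals too, with mir-19a at -0.66 (log2). These were chosen by their calls on the TMM scale.

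**Figure D1:**
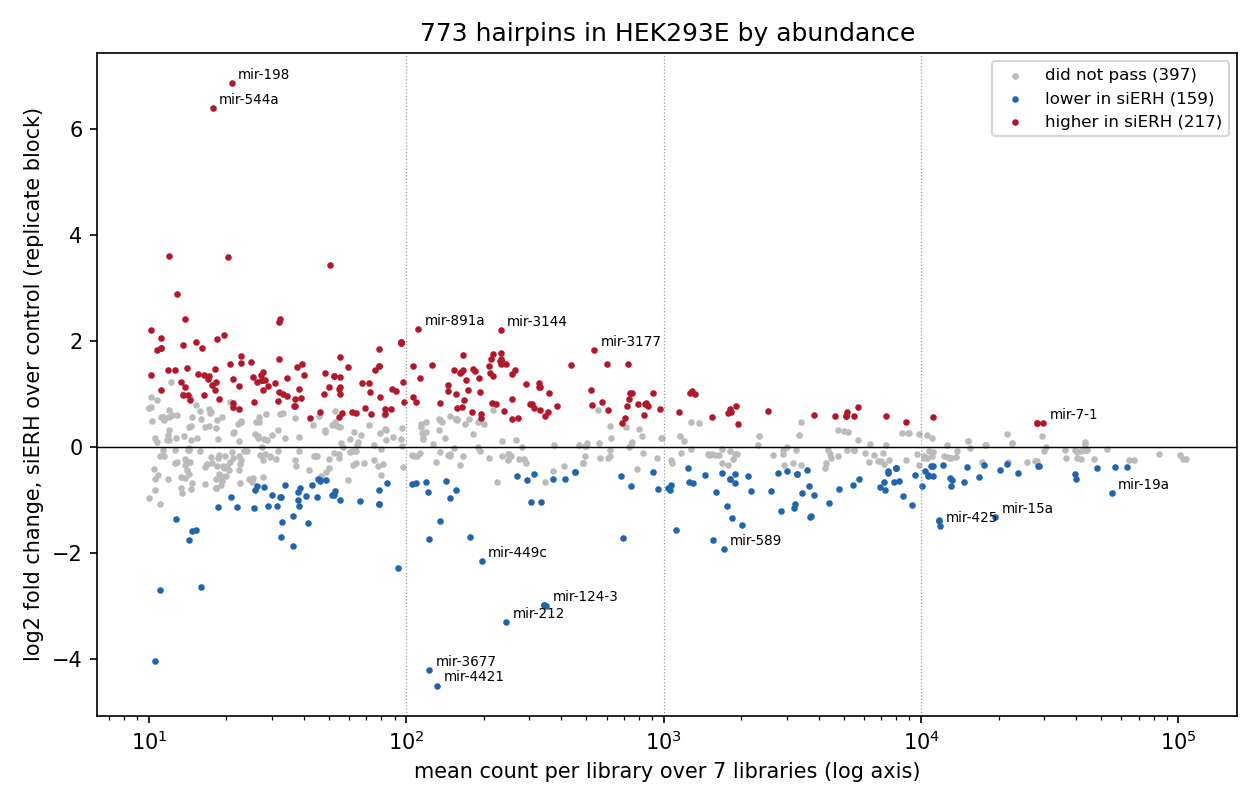
Mean count per library (log axis) against the log2 fold change of siERH over control for 773 hairpins, with the hairpins that fell in blue (159), those that rose in red (217) and the rest in grey. Dotted lines mark means of 100, 1000 and 10000 counts, and red points thin out to the right of 1000 while blue points continue.

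The class totals moved little compared with the hairpins within them. Hairpins with 100 to 1000 counts took 2.35%, 1.95%, 1.75% and 1.62% of the pool in the control libraries and 2.66%, 2.44% and 2.59% in the siERH libraries, so the groups did not overlap. The change within replicates was 0.668 percentage points (two-sided exact permutation test within replicates, p = 0.111, adjusted 0.185). Those with 10 to 100 counts went from a mean of 0.340% to 0.470% (exact permutation p = 0.0556, the smallest that 18 splits allow, adjusted 0.185). Hairpins with 10000 counts and over held 79.7% ± 1.02 (SD, n = 4) of the control pool and 79.2% ± 0.200 (SD, n = 3) of the siERH pool, a change of -0.512 points (exact permutation p = 0.611). That change was -0.0886 points without siControl of replicate 1, -0.935 without siGFP of replicate 1 and -1.25 without siERH-#3 of replicate 1. Those with 1000 to 10000 counts changed by -0.308 points (exact permutation p = 0.722). A design with 18 splits cannot reach 0.05, so none of these 4 changes could pass.

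The pool as a whole exchanged 8.68 percentage points between hairpins, the sum of all gains of share averaged over replicates. The figure was 10.8 points in replicate 1, with 1 siERH library, and 8.66 in replicate 2, with 2. Single libraries of the same replicate gave the scale for this value. The 2 controls differed by 6.86 points in replicate 1 and 5.24 in replicate 2. A control and a siERH library differed by 8.21 to 12.9 points in 6 pairs, and siERH-#3 and siERH-#5 by 4.51. Between replicates, the same siRNA differed by 15.3 points for siGFP, 12.5 for siControl and 7.79 for siERH-#3, a range that overlaps that of control against siERH. A bare majority of the loss came from the 16 hairpins that lost the most, and of the gain from the 21 that gained the most. The rest was spread over the others among 541 that lost and 913 that gained share.

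Hairpins that fell had held 34.0%, 31.5%, 33.0% and 31.4% of the control libraries and held 23.9%, 25.1% and 24.9% of the siERH libraries. Their summed change was -8.02 points. Hairpins that rose went from 6.25%, 4.78%, 4.47% and 4.36% to 8.62%, 8.41% and 8.29%, a gain of 3.52 points. A further 5.16 points went to hairpins that did not pass the test, which lost 0.658 points. These sums describe hairpins chosen by their calls in the same libraries and carry no test.

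**Figure D2:**
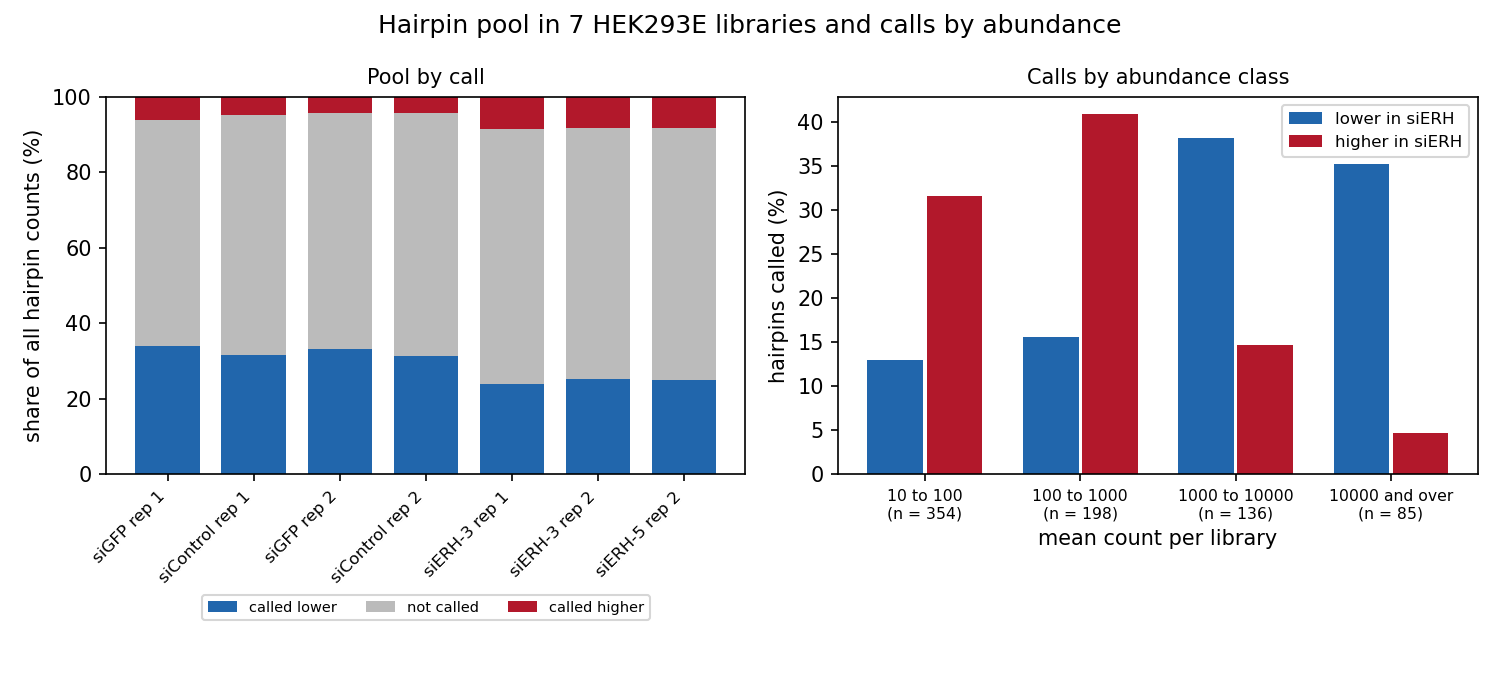
Left, the share of all hairpin counts (%) in each of the 7 libraries held by hairpins that fell (blue), did not pass (grey) and rose (red), with the blue part between 31.4% and 34.0% in control and between 23.9% and 25.1% in siERH libraries. Right, the percentage of hairpins called in each class of mean count, where the taller bar is red up to 1000 counts and blue above.

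The 6 largest losses of share were those of mir-19a, mir-15a, mir-1307, mir-378a, mir-425 and mir-181b-2. The largest was mir-19a, a member of the oncogenic miR-17-92 cluster at chr13:91350891-91350972 (GRCh38, plus strand) in an exon of its host transcript MIR17HG. In control libraries mir-19a had 19476 and 24741 CPM with siGFP and 22034 and 25471 CPM with siControl. In siERH libraries it had 12397 and 13614 CPM with siERH-#3 and 12157 CPM with siERH-#5, so the groups did not overlap. Its log2 fold change was -0.87 ± 0.11 (SE), with an edgeR adjusted p = 5.97e-05, and it lost 0.790 points of the pool. The mean of mir-15a fell from 8927 ± 2038 to 3680 ± 265 CPM (SD, n = 4 and 3), with a loss of 0.443 points. mir-15a lies at chr13:50049119-50049201 on the minus strand, overlapping an exon of the non-coding RNA DLEU2, in a locus often deleted in chronic lymphocytic leukaemia.

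mir-425 lies in an intron of DALRD3 at chr3:49020148-49020234, beside mir-191. It had 5944, 5817, 5306 and 5035 CPM in control libraries and 2086, 1809 and 1862 CPM in siERH libraries. Its log2 fold change was -1.49 ± 0.12 (SE), with an edgeR adjusted p = 9.22e-07, and that of its neighbour mir-191 was -0.38 ± 0.11 (SE, adjusted p = 0.0132). mir-191 lost its call by library totals (-0.17, edgeR adjusted p = 0.164), without the replicate block (-0.36), against siGFP alone (-0.36) and without either library of siERH-#3 (-0.35 and -0.37). mir-1307, in an exon of ATP5MD, and mir-378a, in an intron of PPARGC1B, a coactivator gene of mitochondrial metabolism, fell less in proportion, by 0.61 and 0.51 on the log2 scale. They lost 0.394 and 0.326 points because they were abundant. mir-378a also shifted between replicates, with 18599 and 16875 CPM in the replicate 1 controls and 13480 and 11434 CPM in those of replicate 2. Its siERH libraries, at 11782 CPM in replicate 1 and 9030 and 9026 CPM in replicate 2, lay below both controls of their own replicate but overlapped with the controls as a whole. Scaled by library totals, mir-378a did not pass (log2 fold change -0.31, edgeR adjusted p = 0.0511).

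The 6 largest gains among hairpins that rose were those of mir-7-1, mir-629, mir-197, mir-590, mir-3613 and mir-196a-2. The largest, that of mir-7-1, was smaller than the losses of mir-19a and mir-15a. mir-7-1 lies at chr9:83969748-83969857 on the minus strand within HNRNPK, whose exons it overlaps in the annotation, and gained 0.395 points. It had 10948 and 7675 CPM with siGFP, 7725 and 6983 CPM with siControl, and 11210, 11139 and 10731 CPM in siERH libraries. The groups overlapped, since siGFP of replicate 1 lay above siERH-#5 of replicate 2, and the log2 fold change of 0.45 ± 0.14 (SE, adjusted p = 0.0166 by edgeR) fell to 0.29 (adjusted p = 0.187) against siGFP alone and to -0.02 (adjusted p = 0.947) with the GC trend removed. It lost its call in 8 of 17 alternatives, where the fit without siERH-#5 is entered in duplicate. Among the 8 were those without siControl of replicate 1 or 2, siGFP of replicate 2 or siERH-#3 of replicate 2. mir-629, in an intron of the corepressor gene TLE3, kept its call in every alternative run and went from 2945 ± 224 to 4317 ± 180 CPM (SD, n = 4 and 3). Its gain was 0.181 points.

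mir-197 went from 1927 ± 289 to 2934 ± 92.4 CPM (SD, n = 4 and 3), with the lowest siERH library above the highest control. mir-3613, in an intron of DLEU2, had a log2 fold change of 0.76 ± 0.15 (SE, adjusted p = 0.00123 by edgeR), and 0.15 (adjusted p = 0.38) with the GC trend removed. The values of mir-590 overlapped, with 3387 CPM in siControl of replicate 2 and 2896 CPM in siERH-#3 of replicate 1. Those of mir-196a-2, a HOX cluster hairpin, overlapped too, with 2283 CPM in that control and 2040 CPM with siERH-#5. Against siControl alone neither passed, with log2 fold changes of 0.29 for mir-590 and 0.27 for mir-196a-2, and mir-590 stood at -0.15 (adjusted p = 0.4) with the GC trend removed. Neither passed without siControl of replicate 1, siGFP of replicate 2 or either library of siERH-#3.

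**Figure D3:**
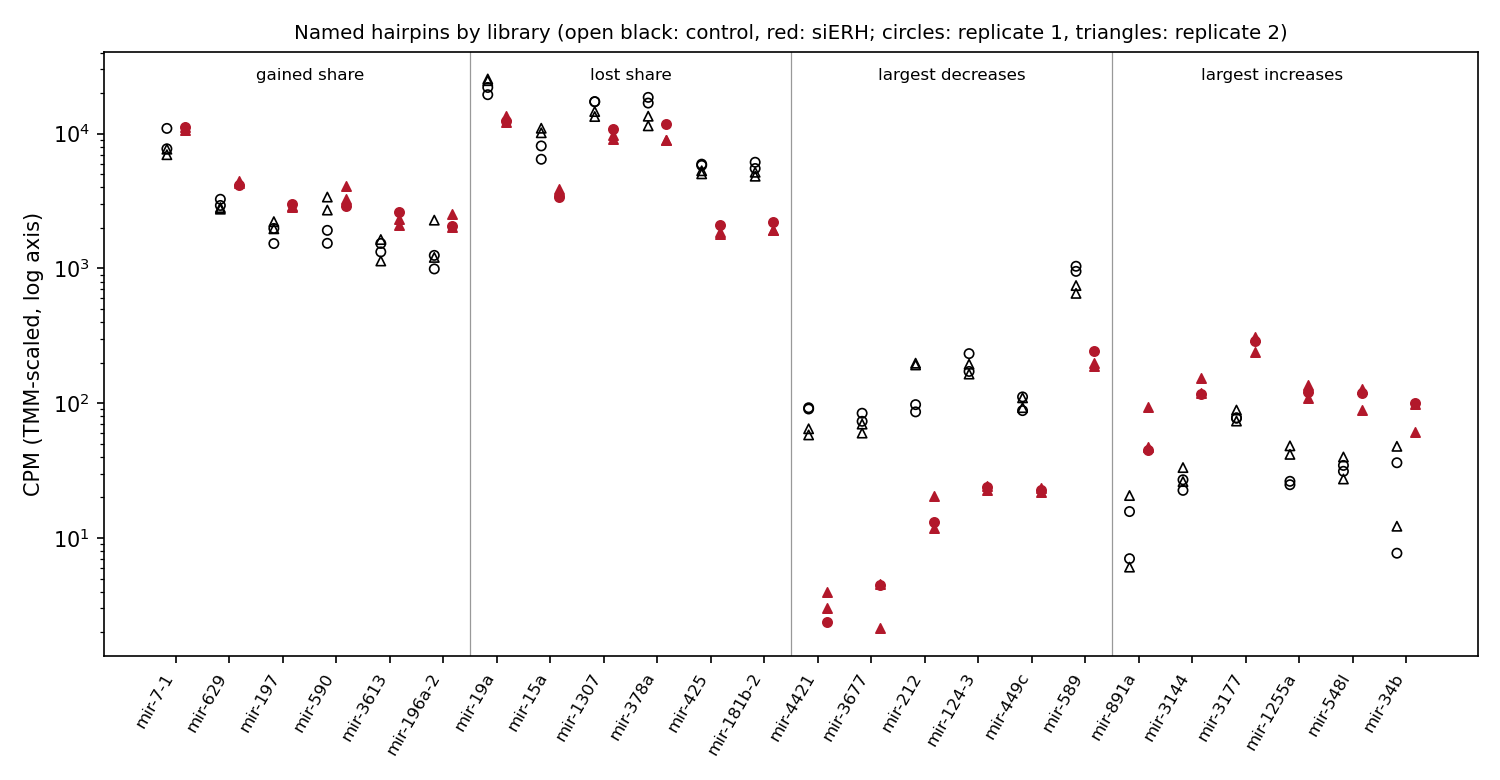
CPM (log axis) in each library for the 6 hairpins with the largest gains and losses of share and the 6 with the largest decreases and increases in fold change, with controls as open black and siERH as red symbols, circles for replicate 1 and triangles for replicate 2. Among gains and losses, red and black lie within a few-fold of each other, and among the largest decreases every red symbol lies below every black one.

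The 6 largest decreases among called hairpins averaging 100 counts or more included 5 with means under 1000 counts and mir-589, which was more abundant. mir-4421, intergenic at chr1:51059837-51059905, had 92.6, 90.6, 58.2 and 64.6 CPM in control libraries and 2.37, 3.05 and 3.98 CPM in siERH libraries. Its log2 fold change was -4.50 ± 0.28 (SE), with an edgeR adjusted p = 2.81e-07, yet its share of the pool fell by 0.00703 points. mir-3677 fell by 4.21 on the log2 scale, mir-212 by 3.30, mir-124-3 by 2.99, mir-449c by 2.15 and mir-589 by 1.92. The groups of each of these 6 did not overlap, and each call held in every alternative run. mir-124 is the main miRNA of neurons, and its copies counted here stood at 191 ± 30.9 CPM (SD, n = 4) in control.

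Among the 6 largest increases, mir-3144 had 22.6, 27.0, 33.3 and 26.2 CPM in control libraries and 117, 118 and 154 CPM in siERH libraries, which is 2.21 ± 0.19 (SE) as a log2 fold change, with an edgeR adjusted p = 2.22e-06. mir-3177, in an intron of MAPK8IP3, rose by 1.82, mir-1255a, in an intron of PPP3CA, by 1.78 and mir-548l, in an intron of MRE11, by 1.76. For mir-891a and mir-34b, the controls themselves differed. mir-891a had 15.7 and 20.7 CPM with siGFP and 7.03 and 6.08 CPM with siControl, and rose by 1.66 against siGFP and by 3.13 against siControl. mir-34b is taken up with its family below. Outside the rule for named hairpins, and chosen after their values were seen, mir-198 and mir-544a were close to absent from control libraries. mir-198 overlaps an exon of FSTL1 at chr3:120395668-120395729 and had 0, 0, 0 and 1 counts in control and 56, 67 and 23 counts in siERH libraries. Its ratio was 184 with a 95% counting interval of 32.6 to 7334. mir-544a, in the long imprinted cluster on chromosome 14, had 1 count in the 4 control libraries together and 28, 67 and 28 in the siERH libraries, a ratio of 155 (27.4 to 6187). These intervals cover counting error only.

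Sums were taken over 55 seed families or related groups, which held 72.6% of the control pool with each hairpin name counted once. They approximate the dose of a seed at best, since counts merge both arms of a hairpin and some groups mix seeds. In miR-548, 9 of 29 members found in RefSeq had the most common seed, and in miR-34 and miR-449 3 of 6 had it. The RefSeq set used here lacked some mature arms, hsa-miR-34c-5p among them. A member counted without the seed may therefore only lack that arm in the set. In a fit of 568 rows, families and all other hairpins, 112 rows fell (19.7%) and 172 rose (30.3%). Of the 55 families, 22 fell and 4 rose. Families thus fell more often and rose less often than rows as a whole, a difference that was not tested. Abundant single hairpins were split in a similar way. At 1000 to 10000 counts 38.2% fell and 14.7% rose, and at 10000 and over 35.3% fell and 4.71% rose. Whether families differed from abundant hairpins was not tested. Without the replicate block 14 families fell and 3 rose, and scaled by library totals 9 fell and 7 rose. Among the sums that then missed the threshold were miR-221 and miR-222 (-0.14), miR-378 (-0.27), miR-18 (-0.13) and miR-133 (-0.68). Of 41 families with at least 2 members tested, 6 had every member fall, 0 had every member rise, 11 had no member called and 24 were split between called and uncalled members. Members moved in opposite directions in 3 families. Among the 41, 31 shared 1 seed over all members found in RefSeq, a count that missing arms can lower.

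**Figure D4:**
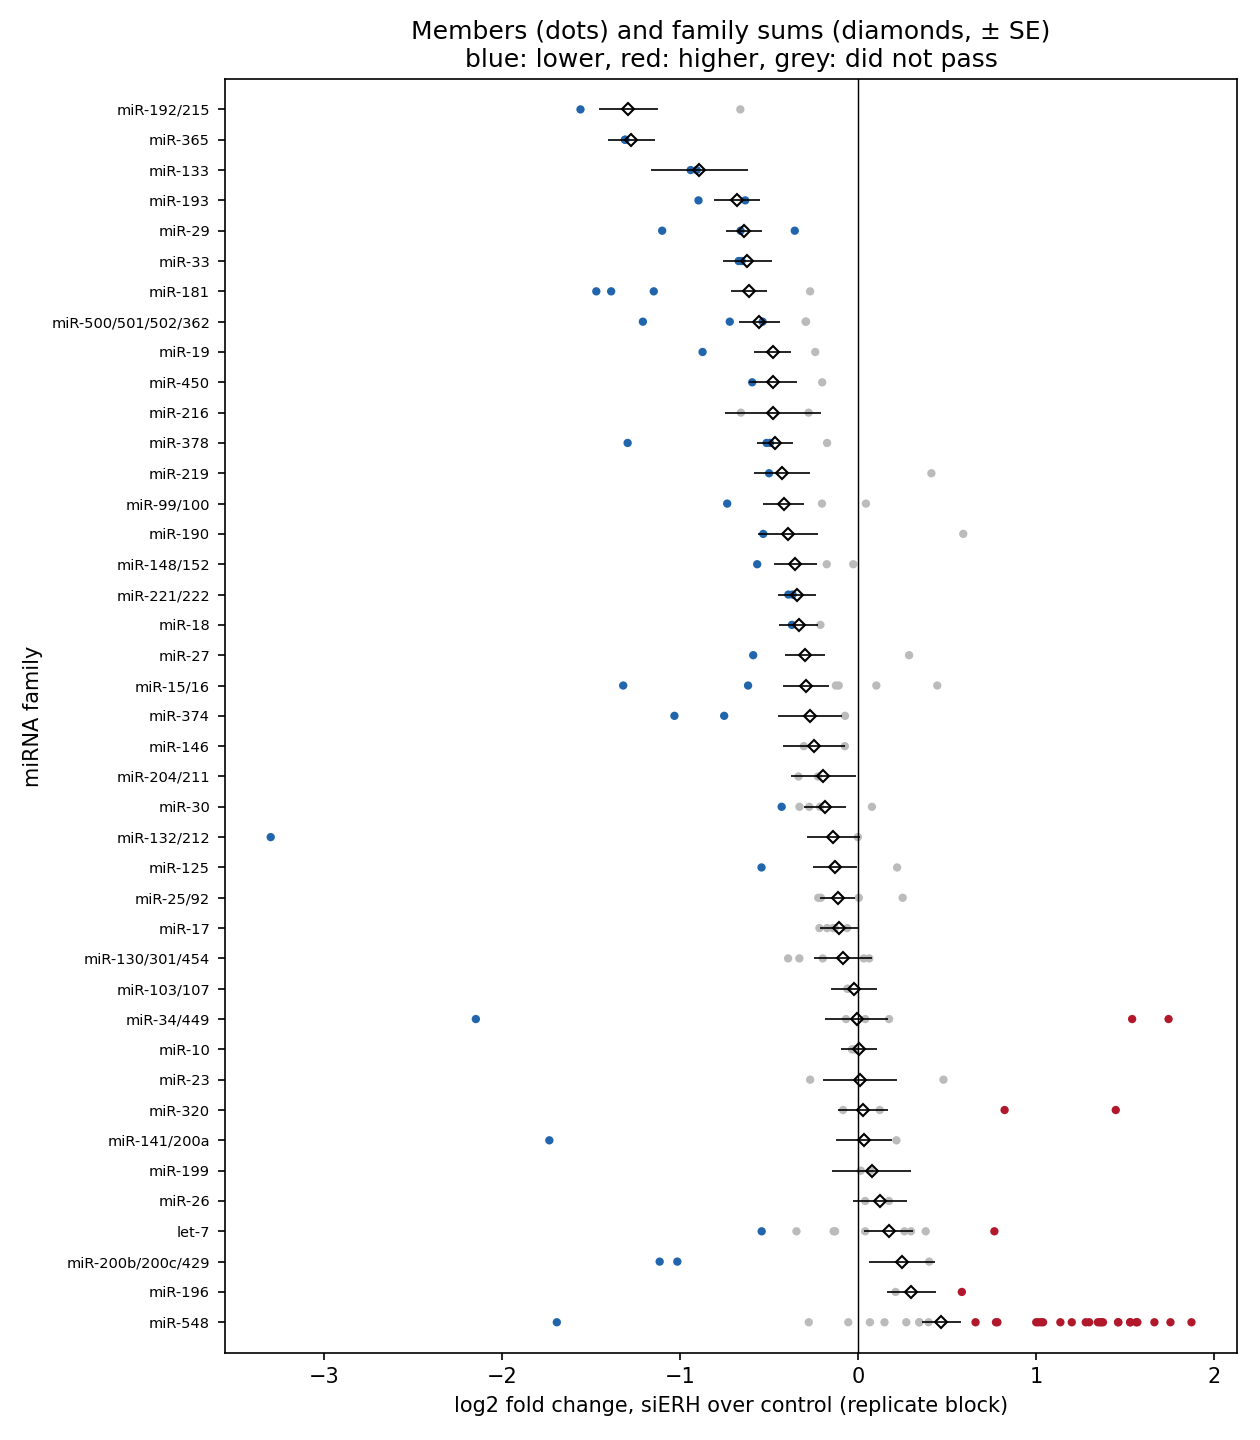
Log2 fold change of siERH over control for the tested members (dots) of 41 families and for each family sum (open diamonds with SE), in blue where a member fell, red where it rose and grey where it did not pass. Single members such as the one of the miR-132 and miR-212 family at -3.30 lie far from their sum.

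The 6 families in which every member fell were miR-29, miR-221 and miR-222, miR-365, miR-193, miR-33 and miR-133. miR-29, which targets collagen and DNA methyltransferase mRNAs, lost 0.430 points, and its sum changed by -0.64 ± 0.10 (SE, edgeR adjusted p = 0.000164). Its members fell by 1.10 (mir-29c), 0.66 (mir-29a) and 0.36 (mir-29b-2) on the log2 scale. mir-29c had 3191, 3879, 4320 and 4795 CPM in control and 1762, 2163 and 1898 CPM in siERH libraries. The miR-221 and miR-222 family, which targets the cell cycle inhibitor p27, fell in sum by 0.34 and lost 0.409 points. Its levels also moved with the replicate, with mir-222 at 15118 and 15334 CPM in the replicate 1 controls and 27129 and 24429 CPM in those of replicate 2. The miR-365 sum fell by 1.27 and the miR-193 sum by 0.68. The changes of mir-365a and mir-365b were almost the same (-1.311 and -1.307). They were kept as separate names but may share reads, so their sum may hold the same reads more than once. miR-33, whose hairpins lie in the sterol regulator genes SREBF1 and SREBF2, fell in sum by 0.62. The sum of miR-133, a muscle miRNA at a mean of 0.00474% of the control pool here, fell by 0.89.

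The miR-19 family lost the most share of any family, 0.887 points, from 5.44% ± 0.204 (SD, n = 4) to 4.50% ± 0.208 (SD, n = 3) of the pool. In this family mir-19a fell, while mir-19b-1, with the same seed, did not pass (log2 fold change -0.24 ± 0.13, edgeR adjusted p = 0.138). By library totals mir-19b-1 stood at -0.03. The loss of share given above for mir-19a is of all counts, so it is not on the scale of the family loss. mir-19b-1 had 18914, 24056, 25484 and 26532 CPM in control and 21705, 19644 and 19337 CPM in siERH libraries, and the groups overlapped. Within the miR-17-92 cluster, mir-19a and mir-18a (-0.37) fell, and mir-17 (-0.14), mir-20a (-0.13), mir-19b-1 and mir-92a-1 (-0.22) did not pass. None of the tested hairpins passed in the paralogous miR-106b-25 (3) and miR-106a-363 (4) clusters. In 5 alternatives mir-19b-1 did pass: with the GC trend removed (-0.60), against siControl alone (-0.35), with no filter (-0.33), without siGFP of replicate 1 (-0.33) and without siERH-#3 of replicate 1 (-0.35). mir-17 passed with the GC trend removed (-0.55) and without siGFP of replicate 1 (-0.24), and mir-92a-1 passed in these (-0.32 and -0.28), against siControl alone (-0.32) and with no filter (-0.31). In each of these fits mir-19a fell as well. mir-19b has near-identical copies in the miR-17-92 and miR-106a-363 clusters.

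The miR-181 family showed the same kind of split. mir-181d fell by 1.47, mir-181b-2 by 1.39 and mir-181c by 1.15, and the most abundant member, mir-181a-1, did not pass (-0.27 ± 0.11, edgeR adjusted p = 0.0629). mir-181b-2 had 5517, 6139, 4836 and 5175 CPM in control and 2223, 1913 and 1917 CPM in siERH libraries. mir-181a-1 had 10128, 11622, 9022 and 9494 CPM and 8879, 7613 and 7911 CPM, so its siERH values were below the controls of their replicate by a smaller margin. mir-181a-1 passed with the GC trend removed (-0.74), against siControl alone (-0.36), with no filter (-0.36) and without siGFP of replicate 1 (-0.30), so its call depends on the fit. The family sum fell by 0.61 and lost 0.544 points.

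In the miR-15 and miR-16 family, whose targets include BCL2 and cyclins, mir-15a fell by 1.32 and mir-15b by 0.62, and the more abundant mir-16-2 did not pass (0.10 ± 0.15, edgeR adjusted p = 0.6). mir-16-2 had 8645, 12167, 15450 and 18634 CPM in control and 14063, 15260 and 15948 CPM in siERH libraries. mir-15b overlapped between groups, at 2625 CPM in siGFP of replicate 1 and 2775, 3999 and 3831 CPM in siERH libraries. It lost its call without the replicate block (-0.57, edgeR adjusted p = 0.196), against siGFP alone (-0.38, adjusted p = 0.161) and without siERH-#5 (-0.53, adjusted p = 0.0585). mir-424 did not pass (-0.11). The family sum did not pass (-0.29 ± 0.13, adjusted p = 0.0735). mir-16-2 stood at 0.32 (adjusted p = 0.0373) by library totals and at -0.49 (adjusted p = 0.014) with the GC trend removed.

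A wide gap separated the seed partners mir-212 and mir-132, which lie within 400 bases of each other on chromosome 17 and are known for their induction by CREB in neurons. mir-212 had 86.3, 97.7, 198 and 192 CPM in control and 13.0, 20.4 and 11.9 CPM in siERH libraries. mir-132 had 680, 895, 1142 and 1225 CPM and 966, 1114 and 941 CPM, which is -0.00 ± 0.16 (SE) as a log2 fold change, with an edgeR adjusted p = 0.994. The family sum stood at -0.14 ± 0.15 (adjusted p = 0.463), since mir-132 makes up most of it. The epithelial miR-200 families had the same form. mir-200a (-1.73), mir-200b (-1.02) and mir-429 (-1.12), which lie in one cluster on chromosome 1, all fell. mir-141 (0.22) and mir-200c (0.40), the cluster on chromosome 12, did not pass, and neither of the 2 family sums, at 0.03 and 0.25, passed.

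Members moved in opposite directions in the miR-34 and miR-449, let-7 and miR-548 families. In the first, whose members are known as targets of p53 or markers of ciliated cells, mir-449c fell from 111, 88.2, 110 and 92.8 CPM to 22.5, 22.0 and 23.6 CPM. mir-34b (1.74) and mir-34c (1.54) rose, although mir-34b and mir-449c share the seed AGGCAGU. These 2 increases rest partly on the controls. mir-34b had 7.71 and 12.2 CPM with siGFP, 36.2 and 47.9 CPM with siControl, and 101, 99.5 and 61.1 CPM in siERH libraries, and rose by 3.16 against siGFP and by 1.05 against siControl. In DESeq2 neither mir-34b (1.67, adjusted p = 0.0632) nor mir-34c (1.47, adjusted p = 0.0776) passed, and mir-34c did not pass with the GC trend removed (1.03, adjusted p = 0.0684). The abundant member mir-34a (-0.07) and mir-449a (0.17) did not pass. In let-7, whose sum did not pass (0.17), mir-98 fell by 0.54 and let-7e rose by 0.77, and the most abundant members, let-7a-3 (0.26), let-7f-2 (0.30), let-7g (-0.14) and let-7c (-0.13), did not pass.

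The 4 families that rose were miR-7, miR-548, miR-194 and miR-135. miR-7, a small family of 1 hairpin name here, rose in sum by 0.49 ± 0.13 (SE, edgeR adjusted p = 0.00708), with the limits given for mir-7-1. miR-548 is a primate family derived from Made1 transposable elements with many scattered hairpins. Of its 33 tested hairpin names 24 rose (72.7% against the 28.1% of all hairpins) and 1 fell, with a median log2 fold change of 1.14 against 0.01 for all hairpins. Among all hairpin names under 1000 counts in the lowest GC quartile, 65.7% rose, with a median of 0.97. Whether miR-548 rose beyond scarce hairpins of low GC content was not tested. The most abundant, mir-548b, at 1437 ± 102 CPM (SD, n = 4) in control, did not pass (-0.06), nor did mir-548e (0.34), while mir-548a-3 (1.03) and mir-548k (0.78) rose. The sum rose by 0.47 and gained 0.183 points. mir-548f-1, the only one that fell (-1.69), had 120 and 129 CPM with siGFP but 36.9 and 48.7 CPM with siControl, against 22.8, 21.4 and 35.8 CPM in siERH libraries. Members of this family are alike in sequence and may share reads, so these 33 counts are not independent.

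miR-194 rose while miR-192, which is transcribed with one of its copies, fell. mir-194-2 had 333, 418, 488 and 606 CPM in control and 688, 695 and 871 CPM in siERH libraries (0.66 ± 0.16, edgeR adjusted p = 0.00489). mir-192 had 511, 571, 504 and 525 CPM and 176, 159 and 200 CPM (-1.56 ± 0.16, adjusted p = 1.1e-05). The groups did not overlap for either hairpin. mir-215, the seed partner of mir-192, did not pass (-0.66 ± 0.28, adjusted p = 0.0628).

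Most of the families with the largest gains of share did not pass, miR-7 (0.521 points) being the exception among the 5 largest. Family shares are of the pool with each hairpin name counted once, so they are not on the scale of the shares of single hairpins. The miR-17 family, at 11.03% ± 2.11 (SD, n = 4) of the control pool and 12.2% ± 0.952 (SD, n = 3) of the siERH pool, gained 0.890 points with a log2 fold change of -0.10 ± 0.11 on the TMM scale (0.10 by library totals). Its control libraries ranged from 8.68% to 13.1%. miR-196 gained 0.492 points, miR-25 and miR-92 0.455, and miR-103 and miR-107 0.455, and none of these sums passed. By library totals miR-196 (0.52), let-7 (0.38) and miR-26 (0.34) passed, and the sums of miR-25 and miR-92 (from -0.11 to 0.09) and of miR-103 and miR-107 (from -0.02 to 0.19) turned positive, as did those of miR-132 and miR-212 (0.07) and of miR-34 and miR-449 (0.21), none of which passed.

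Other lists were genomic clusters and hairpins made in other ways, each read against 20.6% that fell and 28.1% that rose among all hairpins. In the miR-183, miR-96 and miR-182 cluster, known from sensory organs, 3 of 3 fell, by 0.66, 0.50 and 0.44. In the cluster within CLCN5 introns, 4 of 8 fell, with a median of -0.42 and mir-502 (-1.21) and mir-532 (-1.05) the furthest. Of the mirtrons, which are released by splicing without DROSHA, 1 of 7 tested fell and 0 rose, with a median of -0.06. Of mir-320a and mir-484, whose precursors carry a 5' cap and also bypass DROSHA, neither passed (-0.08 and -0.28). mir-320c-1 (0.82) and mir-320d-1 (1.45), much scarcer relatives of mir-320a, rose. Of 6 tested hairpins derived from small nucleolar RNAs, 2 rose. mir-1306 lies in an exon of DGCR8 itself, in one of the hairpins that the Microprocessor is known to cut as a control on DGCR8 mRNA. It had 736, 726, 797 and 779 CPM in control and 239, 219 and 220 CPM in siERH libraries, which is -1.75 ± 0.15 (SE) as a log2 fold change, with an edgeR adjusted p = 1.8e-06. The second DGCR8 hairpin, mir-3618, averaged 13 counts and did not pass (-0.86).

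GC content of the hairpin moved with the direction of change among scarce hairpins. Over 678 hairpin names with a GENCODE sequence, the median GC content was 55.6% for those that fell, 42.7% for those that rose and 55.0% for the rest. In the lowest GC quartile of hairpins under 1000 counts, 88 of 134 rose and 7 fell, and in the highest 16 of 133 rose and 34 fell. Among hairpins with 1000 counts and over, 5 of 37 rose and 10 fell in the lowest quartile, and 6 of 37 rose and 14 fell in the highest. The part of GC content in the changes above was not tested beyond the fit with its trend removed. Hairpins overlapping exons of other genes were 15.6% of those that fell, 10.0% of those that rose and 25.9% of the rest.

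**Figure D5:**
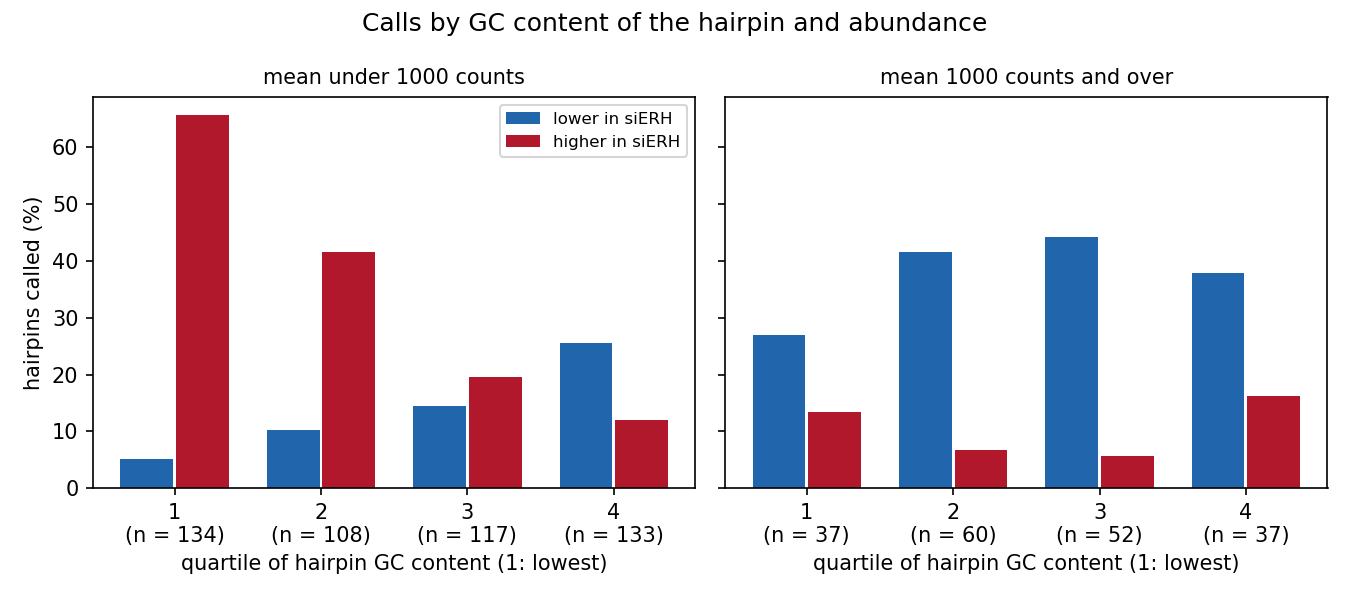
Percentage of hairpins that fell (blue) or rose (red) in each quartile of hairpin GC content, for hairpins with a mean under 1000 counts (left) and of 1000 counts and over (right), with the number of hairpins under each pair of bars. On the left the red bars drop from 65.7% to 12.0% from the lowest to the highest quartile, and on the right they stay between 5.77% and 16.2%.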

How the data were processed

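The values are raw counts, which the authors deposited as 1 whole number per hairpin and library for 1485 hairpins. cutadapt, Bowtie2, bedtools and the build hg38 are named per the submitters' processing notes, with no versions or settings. Per the labels' protocols, each library started from 10 µg of RNA with a set of 30 synthetic spike-ins, fragments of 18 to 30 nt were gel-purified, and each adapter carried 4 random nucleotides. Whether reads were collapsed by these nucleotides, and how reads that fit several copies were counted, is not given in the sources used here. Spike-ins were not used here, so all changes are relative and a change in total miRNA was not measured. The deposited RPM table was not used.

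Blank cells were read as 0. Hairpins averaging 10 counts or more in the 7 libraries were kept (773, over 99.9% of the counts of each library), scaled by TMM and tested with edgeR 4.0.16 (R 4.3.3) by the quasi-likelihood test, with the replicate number as a block and Benjamini-Hochberg adjustment over all hairpins tested. The block rests on the labels' experimental groups. Deviations of same-numbered libraries correlated across hairpins at 0.692, 0.480 and 0.519 for the 3 pairs of siRNAs. The standard error is the log2 fold change over the square root of F. Family sums counted each hairpin name once, by the copy with the highest total, and family shares are of the pool so counted. Shares of single hairpins are of all counts. On simulated data for siERH against control (773 hairpins, 200 changed), the fit called 85.5% at 2-fold and 41% at 1.5-fold. It also called 7 and 6 unchanged hairpins in these, and 0 with no change. The simulated counts held no replicate effect and no difference between siRNAs of one arm, so they do not give the rate of false calls here.

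The members and lists were chosen with earlier results of these data known. Named hairpins are the 6 largest gains and losses of share among those called, the 6 largest decreases and increases among those called that average 100 counts or more, and, for each family or list described, up to 4 of its most abundant members and any called against its majority. Exceptions are named in the text. Positions, GC content and context come from GENCODE v29 (GRCh38), matched by name for 772 of 773 hairpins, and exon means overlap with an exon of another gene on the same strand. Figures used matplotlib 3.10.9 in Python 3.11.15. Alternatives covered the block, the scaling, DESeq2 1.42.0, the filter, copies, GC content, each control alone and each library left out.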

Additional observations from a re-analysis of the deposited data

Results flagged for a closer look

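In 39 sets of 4 control values, each for 1 named hairpin or 1 share of the pool, Dixon's test marked 2. Chance marks about 1 in 20 among continuous values. Both marked sets hold 1 count beside 3 values of 0, a form that the test always marks, so that rate does not apply to them. mir-198 had 0.380 CPM in siControl of replicate 2, from 1 count, with 0 in the 3 other controls. mir-544a had 0.422 CPM in siGFP of replicate 2, also from 1 count, with 0 in the 3 other controls. Both are single reads far below the siERH libraries.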

How the results depend on the processing

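Of the 408 recomputed log2 fold changes of the 24 hairpins named by the largest changes or shares, 381 stayed on the same side of the threshold in the same direction. The other 27 belong to 6 hairpins (mir-7-1, mir-590, mir-196a-2, mir-3613, mir-378a and mir-34b), and 18 of the 24 passed in every alternative. The 408 and the 381 hold 1 fit in duplicate, since that on siERH-#3 libraries only is also that without siERH-#5. When the GC trend was removed in the fit with the replicate block, mir-7-1 stood at -0.016, mir-590 at -0.154 and mir-16-2 at -0.49 (from 0.10), and the cause was not tested. The number that fell was 87 by library totals, 102 with siGFP as the only control and 96 among hairpins averaging 100 counts or more, where 107 rose, since fewer hairpins (419) were tested. Leaving out 1 library at a time gave 94 to 178 that fell and 190 to 225 that rose, 15 to 26 families that fell and 3 to 5 that rose, and 8.23 to 9.42 points exchanged. Without the replicate block 125 hairpins fell and 184 rose, all among the 159 and 217, and 14 families fell. By library totals 9 families fell and 7 rose. Between any alternative and the reported fit, 0 hairpins were called in opposite directions. Depth limits hairpins near 10 counts, and 3 counts equal 0.852 to 1.27 CPM.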
